A study of Caenorhabditis elegans with 8 samples.

Results

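The cuticle collagen genes of C. elegans were examined in populations grown with and without Urolithin A (UA), a gut microbial metabolite of ellagitannins. A gene was taken as a cuticle collagen gene if its RefSeq symbol was col- followed by a number, or was on a fixed list of 17 collagen genes known from body shape mutants (dpy, sqt, rol and bli), and if it had 10 or more counts in at least 4 of the 8 libraries. Of 46928 genes in the deposited table, 176 had such a name and 98 of these had enough counts. These 98 comprised 89 col genes and 9 genes of the mutant list (dpy-2, dpy-3, dpy-7, dpy-8, dpy-9, dpy-10, dpy-14, dpy-17 and sqt-3). The choice used names and overall counts and not the effect of UA, although a gene near the count minimum can meet it through the group where it is higher. Just inside the count minimum were 6 genes with 10 or more counts in exactly 4 libraries (means of 8.75 to 16.3 counts), and just outside were 7 genes with that many in 3 libraries (means of 8 to 38.9 counts).

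The UA group held 4 populations of wild type N2 animals given 50 μM UA in the growth medium, and the control group held 4 untreated populations of the same strain. Both were fed OP50 bacteria at 20 °C, and RNA was taken from pellets of whole animals, so that a smaller number of cells of a type and less RNA per cell cannot be told apart in any value below. Animals were collected on adult day 1 by the paper's methods, but the deposited design runs the treatment up to day 4, so their age is uncertain. The libraries of each group are called A to D, for replicates 1 to 4.

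The cuticle is the extracellular coat of the nematode, made by the epidermis and rebuilt at each molt. Its collagens are encoded by a large family of small genes, and groups of them are transcribed in successive waves during each molting cycle. The chains are hydroxylated and folded in the endoplasmic reticulum, cut by proteases, and crosslinked outside the cell. Some collagens build the annular furrows that ring the body, others build the struts of the adult cuticle, and some (col-10, col-13 and col-120) are known from lifespan work. Lifespan extension in long-lived mutants is accompanied by continued collagen expression in adults.

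The 98 genes were small and scattered. By the Ensembl annotation of the WBcel235 genome their coding sequences had a median of 305.5 codons, 93 of them had 250 to 400 codons, and 48 of them had 2 coding exons. Chromosome IV held 27 of them, V and X held 19 each, II held 15, III held 10 and I held 8. The exception in structure was col-99 (IV: 137974 to 147919, minus strand), with 735 codons in 18 coding exons. It encodes a transmembrane collagen known for its role in axon guidance, so its name places it in the family but its known role is outside the cuticle. The exons of 31 of the 98 genes overlapped another gene, in 25 cases on the opposite strand, and in 20 cases a gene with a mean of 10 or more counts. Whether the counting used the strand is not stated, so the counts of such genes may hold reads of their neighbour.

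Libraries were deep and even, with 41890058 to 43055719 counts. The collagen genes took 0.365 to 0.520% of all counts in UA libraries and 0.335 to 0.634% in control libraries. Among the 44189 counts between 1 and 19 in the table, 76.5% were even numbers, so each sequenced fragment may often have been counted by both of its ends and the true depth may be lower than these totals. Markers of the epidermis were all detected (9 of 9 tested), and their summed level was 384.7 to 411.6 CPM (counts scaled to the size of the library, with TMM factors) in UA libraries and 364.1 to 420.3 CPM in control libraries. Sperm markers were nearly absent, with sums of 1.07 to 3.10 CPM in UA libraries and 1.37 to 1.84 CPM in control libraries, and with 1 of the 6 at 0 in every library.

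The replicates did not behave alike. Replicates A and B were compared apart from replicates C and D, a division that came from the first principal component in earlier results of these data and not from the labels. The p-values within and between the divisions may be too small for that reason. Control C stood apart among the collagens: it was the lowest of the 8 libraries for 9 of the 22 collagen genes with a mean of 1000 or more counts, while it was the highest for sqt-3, dpy-17 and dpy-14. UA B was the lowest for 11 of these 22 genes and control A the highest for 11. The heatmap of all 98 genes shows these blocks.

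**Figure D1:**
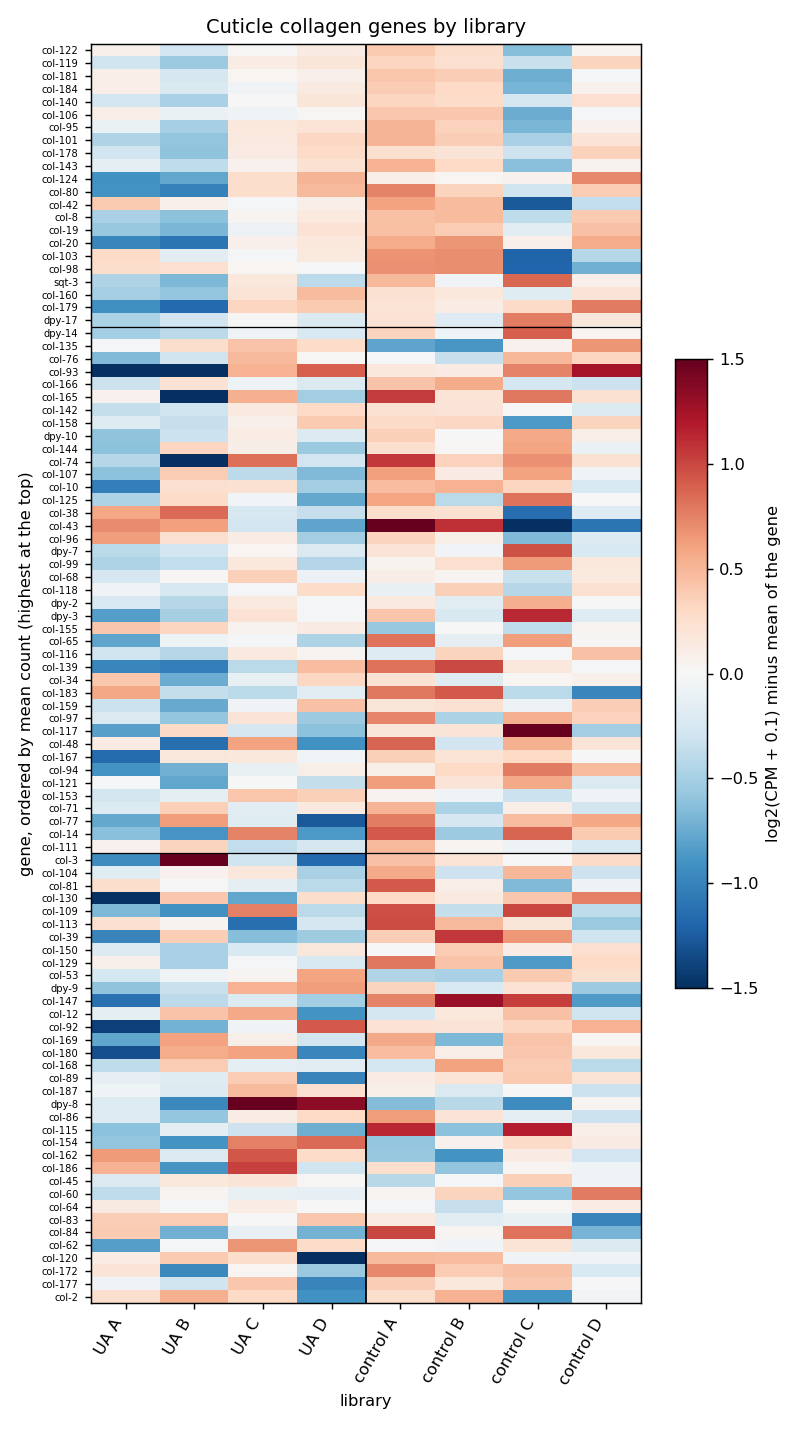
Level of each cuticle collagen gene in each library, as log2(CPM + 0.1) minus the mean of the gene over the 8 libraries. Rows are ordered by mean count, with lines at means of 1000 and 50 counts. UA libraries are on the left of the vertical line and control libraries on the right. Among the most abundant genes, UA A, UA B and control C are low and control A and control B are high.

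A few collagens made up most of the collagen RNA. The 10 genes with most counts held 79.7 to 83.4% of all collagen counts in UA libraries and 74.6 to 80.3% in control libraries. On the RPKM scale (CPM per kilobase of exon), the highest were col-122 (CELE_T05A1.2, IV: 9563379 to 9564441, plus strand) with a mean of 719.2 RPKM with UA and 757.4 RPKM in controls, and col-119 (CELE_C53B4.5, IV: 8978926 to 8979795, minus strand) with 587.2 RPKM with UA and 711.8 RPKM in controls. They were followed by col-181 (445.8 and 470.6 RPKM, UA and control), col-140 (361.4 and 441.5 RPKM), col-184 (414.9 and 434.8 RPKM) and col-106 (406.2 and 430.4 RPKM). The median collagen gene had 1.85 RPKM in controls, and the range was 0.117 to 757.4 RPKM.

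The summed level of the 98 genes was 4325, 3618, 4921 and 5288 CPM in UA A to D, against 6263, 5834, 3479 and 5259 CPM in control A to D. UA averaged 4538 ± 731 CPM and control 5209 ± 1220 CPM (SD, n = 4 each), a log2 ratio of -0.20, and the groups overlapped. In replicates A and B both UA libraries lay below both controls (log2 ratio -0.61). In replicates C and D control C lay below every UA library of that division and the log2 ratio was 0.23. Without control C the ratio was -0.04 in replicates C and D and -0.35 over all libraries. Over all libraries it was -0.10 without control A and -0.10 without UA B.

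Markers of body wall muscle followed nearly the same order of libraries. Their sum was 650.8, 511.9, 662.1 and 716.3 CPM in UA A to D, against 766.4, 763.8, 440.2 and 720.2 CPM in control A to D. By edgeR 0 of the 6 markers passed the test over all libraries, and 4 of 6 were lower with UA in replicates A and B (4.07% of all genes). All 6 were detected, and their part in the collagen values was not tested. Of the 9 epidermis markers, 1 was lower over all libraries (1.55% of all genes) and 1 in replicates A and B. In replicates C and D 2 of them were lower (1.92% of all genes) and 1 was higher (4.93%). The median log2 fold change of the epidermis markers over all libraries was -0.17. The basement membrane collagens emb-9, let-2 and cle-1, which surround muscle and other tissues, summed to 298.1, 218.7, 297.1 and 318.7 CPM in UA A to D, against 306.3, 304.6, 193.2 and 343.4 CPM in control A to D, and 0 of 3 passed the test in any of the comparisons.

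Over all 8 libraries, a minority of the collagen genes were lower with UA and few were higher. Of the 98 genes, 95 passed edgeR's filter on low counts, and col-115, col-172 and dpy-8 did not. The counts of col-115 were 6, 10, 8 and 5 in UA A to D, against 30, 6, 30 and 12 in control A to D, and those of col-172 were 10, 2, 8 and 4 in UA A to D, against 16, 12, 12 and 6 in control A to D. With the thresholds of the paper's methods (fold change above 1.2, unadjusted p below 0.05), 14 of the 95 were lower with UA (1.55% of all 13720 genes tested were lower) and 2 were higher (4.12% of all genes were higher). The median log2 fold change of the 95 was -0.29, with 74 below 0, against -0.003 over all genes. At an adjusted p under 0.05 (0.0948% of all genes) none of the 95 passed by edgeR or by DESeq2, while 16 had an unadjusted p under 0.05 by edgeR. With the replicate number as a block, 26 were lower (2.47% of all genes in that fit) and sqt-3 alone passed an adjusted p under 0.05 (log2 fold change -0.68, adjusted p = 0.00927), as 0.838% of all genes did. Without UA A there were 7 lower and 0 higher genes, and without control A 8 lower and 0 higher. Without UA B, UA C, UA D, control B or control C, 1 was higher. The share of all genes called in these fits without a library was not computed.

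The collagens sqt-3, dpy-17 and dpy-14, all known from body shape mutants, were lower with UA and fell in every pair of libraries with the same letter. The collagen gene sqt-3 (CELE_F23H12.4, V: 12352745 to 12354320, plus strand) is needed for the normal shape of the body. It had 24.7, 21.2, 38.0 and 25.9 CPM in UA A to D, against 47.4, 32.6, 61.8 and 35.8 CPM in control A to D. The groups overlapped only through UA C, and the log2 fold change was -0.69 (SE 0.22, adjusted p = 0.442, edgeR). The product of dpy-17 (CELE_F54D8.1, III: 5107330 to 5108492, plus strand) is secreted together with SQT-3. It had 21.4, 24.4, 30.2 and 25.7 CPM in UA A to D, against 34.8, 26.2, 51.1 and 33.6 CPM in control A to D (log2 fold change -0.52, SE 0.18, adjusted p = 0.510, edgeR). UA C was above control B, and the other 3 UA libraries lay below all controls. The gene dpy-14 (CELE_H27M09.4, I: 6843589 to 6845142, plus strand), whose loss makes the body short, had 15.8, 16.9, 21.5 and 19.2 CPM in UA A to D, against 28.3, 21.4, 42.0 and 23.1 CPM in control A to D (log2 fold change -0.65, SE 0.20, adjusted p = 0.422, edgeR). Here UA C and control B nearly met and no other UA library reached a control. These 3 genes were below 0 in both divisions. In replicates A and B the log2 fold changes were -0.80, -0.41 and -0.60 for sqt-3, dpy-17 and dpy-14, and in replicates C and D they were -0.61, -0.60 and -0.68. Their differences between the divisions were -0.19 (SE 0.36), 0.19 (SE 0.26) and 0.07 (SE 0.32) and did not pass the test (adjusted p = 0.922, 0.888 and 0.972, edgeR). Each kept its call when any library was left out.

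**Figure D2:**
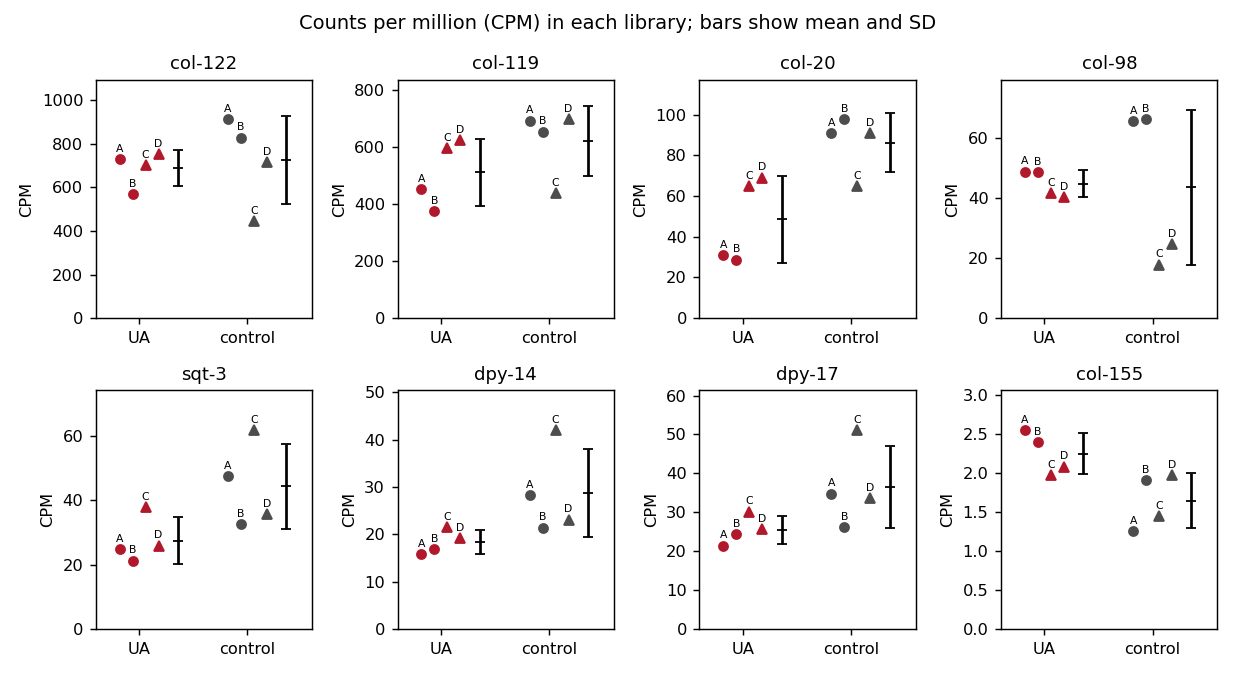
CPM of 8 collagen genes in each library, with UA on the left of each panel and control on the right. Circles are replicates A and B, triangles are replicates C and D, and the bars give the mean and SD of the 4 libraries. For sqt-3, dpy-14 and dpy-17 control C is the highest library, while for col-122 and col-119 control C is low. For col-20 UA A and UA B are the lowest, and for col-98 control C and control D are.

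The furrow collagens dpy-2, dpy-3, dpy-7, dpy-8, dpy-9 and dpy-10 build the annular furrows. Of the 5 tested, 1 was lower with UA (1.55% of all genes), with a median log2 fold change of -0.52. That gene, dpy-10 (II: 6710149 to 6712227, minus strand), had 2.82, 3.44, 4.69 and 3.74 CPM in UA A to D, against 5.58, 4.32, 6.48 and 4.64 CPM in control A to D (log2 fold change -0.52, SE 0.19, adjusted p = 0.544, edgeR). The log2 fold changes of dpy-7 (-0.52), dpy-3 (-0.65) and dpy-2 (-0.29) did not pass, and dpy-9 was at 0.18. With the replicate number as a block, 3 of the 5 passed as lower (2.47% of all genes in that fit), namely dpy-10, dpy-7 and dpy-3. Of these, dpy-7 and dpy-3 passed narrowly (unadjusted p = 0.0438 and 0.0456, edgeR). The 6 furrow collagens summed to 8.196, 8.974, 14.07 and 11.78 CPM in UA A to D, against 14.44, 11.01, 19.83 and 11.32 CPM in control A to D. UA A, UA B and UA C were below the control of the same letter, and UA D was above control D. The 9 dpy and sqt genes summed to 70.1, 71.5, 103.7 and 82.6 CPM in UA A to D, against 124.9, 91.2, 174.7 and 103.8 CPM in control A to D. Most of this larger sum came from sqt-3, dpy-17 and dpy-14, which are not furrow collagens. Its log2 ratio was -0.59, with -0.61 in replicates A and B and -0.58 in replicates C and D.

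The other called genes were col genes of mostly low level. The adult collagen col-19, a known target of the LIN-29 transcription factor in the adult epidermis, had 58.3, 53.4, 80.9 and 100.3 CPM in UA A to D, against 118.2, 112.4, 77.3 and 117.1 CPM in control A to D (log2 fold change -0.54, SE 0.20, adjusted p = 0.558, edgeR). UA A and UA B were lowest, and UA C and UA D were above control C. The log2 fold changes of the other lower genes were col-147 (-1.50), col-139 (-0.96), col-94 (-0.84), col-65 (-0.73), col-121 (-0.63), col-107 (-0.62) and, of the transmembrane type, col-99 (-0.57). The exons of col-121 overlap those of daf-15 by 229 bases and the exons of col-99 overlap those of daf-1 by 236 bases, each on the opposite strand, and these neighbours have more counts. For col-39, also lower, the mean was 0.548 CPM with UA and 1.099 CPM in controls. The last called gene, col-20, is described with the division of the replicates. Among the 14 lower genes, col-19, col-20, sqt-3 and dpy-17 had a mean of 1000 or more counts.

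The 2 genes that were higher with UA were col-155 and col-162. col-155 (V: 11388852 to 11389876, minus strand) had 2.55, 2.40, 1.97 and 2.08 CPM in UA A to D, against 1.26, 1.91, 1.45 and 1.97 CPM in control A to D. All UA libraries were above all controls, although UA C and control D were nearly equal, which made it the only such gene among the 95 (3.06% of all genes had this order). No collagen gene had all UA libraries below all controls (1.72% of all genes). Its log2 fold change was 0.45 (SE 0.19, adjusted p = 0.668, edgeR). col-162 was near the detection limit, with a mean of 0.393 CPM with UA and 0.178 CPM in controls (log2 fold change 1.14, SE 0.44, adjusted p = 0.590, edgeR). Its counts were 20, 9, 24 and 14 in UA A to D, against 6, 4, 12 and 8 in control A to D. It thus met the count minimum mainly through the UA libraries, the group where it is higher.

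Of the 16 called genes, 6 kept the call without any of the 8 libraries (col-20, col-94, col-147, dpy-14, dpy-17 and sqt-3). dpy-10 lost it without UA A (-0.41), UA B (-0.49), control A (-0.49) or control C (-0.40). col-19 lost it without UA A (-0.44), UA B (-0.41), control A (-0.48) or control D (-0.48), and col-99 without UA A (-0.50), UA D (-0.51) or control C (-0.42). col-65 lost it without UA A (-0.59), UA D (-0.67), control A (-0.54) or control C (-0.63). col-39 lost it without UA A (-0.81), UA C (-0.90), UA D (-0.93), control B (-0.74) or control C (-0.95). col-107 lost it without UA A (-0.52), UA C (-0.58), UA D (-0.51), control A (-0.52) or control C (-0.52). col-121 lost it without UA B (-0.48), UA D (-0.60), control A (-0.51) or control C (-0.54), and col-139 without UA A (-0.79), UA B (-0.77), UA C (-0.94), control A (-0.85) or control B (-0.77). The gene col-155 lost it without UA A (0.39), UA B (0.42), UA D (0.49), control A (0.34) or control C (0.40), and col-162 without UA A (1.06), UA C (0.89), control A (1.04) or control B (0.92).

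In replicates A and B, many of the collagens were lower with UA. Of the 95 genes, 35 were lower (4.07% of all genes) and 3 were higher, namely col-135, col-155 and col-162 (5.98% of all genes). The median log2 fold change was -0.54, with 82 below 0, against -0.008 over all genes. An adjusted p under 0.05 was reached by 12 of the 95 (2.21% of all genes), of which 11 were lower. All 22 genes with a mean of 1000 or more counts were below 0, and 19 of them passed as lower. Without control A the median log2 fold change of the 95 genes was -0.44.

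In replicates C and D the collagens moved less and in both directions. Of the 95 genes, 8 were higher (4.93% of all genes) and 7 were lower (1.92% of all genes), with a median log2 fold change of -0.07 against 0.005 over all genes. Only col-98, which was higher, had an adjusted p under 0.05 (0.488% of all genes). The 8 higher genes were col-95, col-143, col-42, col-103, col-98, col-160, col-43 and col-153, and the 7 lower ones were sqt-3, dpy-17, dpy-14, col-94, col-107, col-117 and col-77. Among the 22 genes with a mean of 1000 or more counts the median was 0.31, but this depended on control C, control D and UA D. Without UA D it was 0.18, without control C it was -0.01, and without control D it was 0.60. Over the 95 genes, 13 were higher in replicates C and D with the replicate number as a block (4.93% of all genes in that fit). The median log2 fold change of the 95 was -0.127 without UA C, 0.046 without UA D, -0.017 without control C and 0.04 without control D. Leaving out a library also moved the counts of higher and lower genes both down and up. Such fits leave a lone library in a group, and the share of all genes called in them was not computed.

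**Figure D3:**
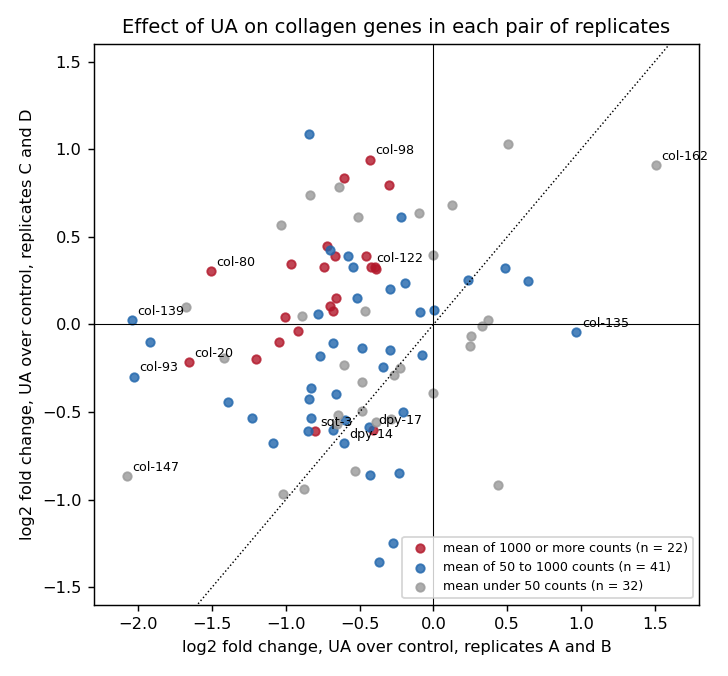
Log2 fold change of 95 collagen genes, UA over control, in replicates A and B (horizontal axis) and in replicates C and D (vertical axis), coloured by mean count. The dotted line marks equal effects. All 22 genes with a mean of 1000 or more counts lie left of 0, and 16 of them lie above 0 on the vertical axis.

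Whether UA acted differently in the divisions was tested with an interaction term. At an unadjusted p under 0.05 it was negative (a lower value of UA over control in replicates A and B) in 31 of 95 genes (4.66% of all genes) and positive in 1 (3.89% of all genes). At that threshold, in either direction, it also passed for 5 of 6 markers of body wall muscle and 4 of 6 of intestine. It passed for 1 of 9 markers of epidermis and for 0 of those of oocyte and eggshell, pharynx or neurons. At an adjusted p under 0.05 (0.0802% of all genes) it passed for 3 of the 95 collagen genes, namely col-20, col-80 and col-98. With the replicate number as a block it passed for 11 (0.168% of all genes in that fit), namely these 3 and col-19, col-93, col-101, col-103, col-124, col-140, col-143 and col-160. When a library was left out, the number of collagen genes that passed went down or up with the library. The share of all genes that passed in those fits was not computed.

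The level of col-20 (CELE_F11G11.11, II: 4869670 to 4870791, minus strand) was 31.2, 28.8, 64.9 and 69.1 CPM in UA A to D, against 91.0, 97.6, 64.9 and 90.8 CPM in control A to D. UA A and UA B were lower than every other library, whereas UA C equalled control C. The log2 fold change was -1.65 (SE 0.13, adjusted p = 9.04e-05, edgeR) in replicates A and B and -0.22 (SE 0.12, adjusted p = 0.662) in replicates C and D, and the difference was -1.44 (SE 0.18, adjusted p = 0.0160, edgeR). Over all libraries it was -0.83 (SE 0.28, adjusted p = 0.470, edgeR).

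The level of col-80 (CELE_C09G5.5, II: 10707201 to 10708287, plus strand) was 49.9, 45.7, 111.3 and 130.3 CPM in UA A to D, against 155.7, 116.6, 75.1 and 120.9 CPM in control A to D. UA A and UA B were again the lowest of all, while UA C and UA D were above the controls of the same letter. The log2 fold change was -1.51 (SE 0.19, adjusted p = 0.00234, edgeR) in replicates A and B and 0.30 (SE 0.19, adjusted p = 0.684) in replicates C and D, and the difference was -1.81 (SE 0.27, adjusted p = 0.0490, edgeR).

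For col-98 (CELE_F14F7.1, III: 13019008 to 13020226, plus strand) the difference lay in the controls. It had 49.0, 48.8, 41.6 and 40.3 CPM in UA A to D, against 65.7, 66.3, 17.9 and 24.8 CPM in control A to D. The UA libraries differed little from each other, and the controls lay above them in A and B and below them in C and D. The log2 fold change was -0.43 (SE 0.11, adjusted p = 0.0867, edgeR) in replicates A and B and 0.94 (SE 0.12, adjusted p = 0.00603) in replicates C and D, and the difference was -1.37 (SE 0.16, adjusted p = 0.0160, edgeR). The differences of col-20, col-80 and col-98 each kept an adjusted p under 0.05 without control C or control D and lost it without any of the other 6 libraries, while the fold differences kept their sign. Each of these fits leaves a lone library in a group, which is assumed to vary like the others.

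The remaining genes with an adjusted p under 0.05 in replicates A and B were col-139 (-2.04), col-93 (-2.03), col-179 (-1.20), col-19 (-1.05), col-8 (-1.01), col-101 (-0.96), col-124 (-0.92), col-160 (-0.74) and col-140 (-0.68), all lower with UA on the log2 scale, and col-135 (0.97). The level of col-93 was 2.53 and 2.01 CPM in UA A and UA B, against 9.37 and 9.14 CPM in control A and control B, with a log2 fold change of -0.30 in replicates C and D. It lies between col-92 and col-94 on chromosome III, all on the minus strand and 1298 and 1198 bases from each other, and these neighbours were also lower in replicates A and B (col-92 -1.68, col-94 -1.09). In contrast, the neighbours col-95 and col-96, 560 bases apart on opposite strands, had log2 fold changes of -0.72 and 0.24 in replicates A and B. The longest coding sequence after col-99 in this group belonged to col-135, with 660 codons, and it had 15.9, 19.3, 21.7 and 19.5 CPM in UA A to D, against 9.25, 8.73, 16.8 and 25.6 CPM in control A to D.

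Taking each letter alone, the median log2 ratio of UA over control over the 95 genes was -0.66 for A, -0.40 for B, 0.06 for C and -0.09 for D. In all 4 letters 20 genes were lower (9.94% of all genes) and 3 were higher (10.6% of all genes), and 21 were lower in A and B and higher in C and D (7.25% of all genes).

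Of the adult and lifespan collagens col-7, col-10, col-13, col-19, col-62 and col-120, 4 were tested. Only col-19 passed, as lower (1.55% of all genes). The level of col-10 was 1.87, 4.61, 4.59 and 2.67 CPM in UA A to D, against 5.39, 5.64, 4.92 and 3.32 CPM in control A to D (log2 fold change -0.49, adjusted p = 0.799, edgeR), and with the replicate number as a block it passed as lower. The log2 fold changes of col-62 and col-120 were 0.17 and -0.37 at means of 10.6 and 9.75 counts per library, and col-7 and col-13 had too few counts to be tested.

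Of the 78 collagen genes with too few counts, 45 reached 10 counts in no library, 33 reached it in 1 to 3 libraries, and 8 were at 0 in all. Of the mutant list, bli-1 and bli-2, the strut collagens of the adult cuticle, had at most 11 counts in any library. In UA C and UA D a set of these genes was detected that was nearly absent elsewhere. It held col-17, col-73, col-90, dpy-4, dpy-5, dpy-13, sqt-1, sqt-2 and rol-6, taken after their values were seen as the genes with 20 or more counts in UA C and 10 or more in UA D. Their summed counts were 19, 26, 1203 and 376 in UA A to D, against 26, 10, 114 and 16 in control A to D. For all 9, UA C and UA D were each above UA A, UA B and all 4 control libraries. The choice and the count minimum largely fix this order, so it is no separate support. The level of dpy-5 was 3.90 CPM in UA C and 0.852 CPM in UA D, against 0.289 CPM in control C and 0 in control D. The genes col-17 and col-73 flank col-20 on chromosome II, and col-17 had 241 and 54 counts in UA C and UA D and 16 in control C, and 0 in the other 5 libraries. Among the 98 genes dpy-8 was alike, with 10, 4, 50 and 36 counts in UA A to D, against 6, 8, 4 and 12 in control A to D, and so was rol-8, a cuticle collagen outside the name rule, with 2.31 and 0.946 CPM in UA C and UA D, against 0.434 and 0.288 CPM in control C and control D.

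**Figure D4:**
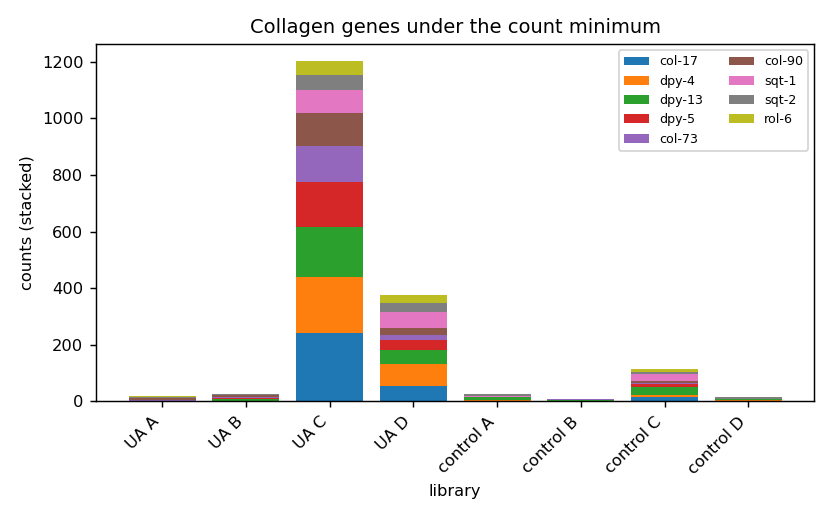
Counts of 9 collagen genes that fell under the count minimum, stacked for each library, with UA libraries on the left and control libraries on the right. The 9 were chosen for their counts in UA C and UA D. The sum is 1203 counts in UA C and 376 in UA D, against 114 in control C and at most 26 in every other library.

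Of 14 tested genes that fold and process collagens, 0 passed by edgeR at the same thresholds in either direction over all libraries (median log2 fold change 0.02), within each division, or with the replicate number as a block. They include dpy-18 and phy-2, the catalytic subunits of prolyl 4-hydroxylase, pdi-2, its partner, bli-4, a protease that trims collagen chains, and bli-3, the oxidase that crosslinks the cuticle. Their summed level was 1380 to 1453 CPM in UA libraries and 1385 to 1424 CPM in control libraries, and at an unadjusted p under 0.05 the interaction passed for 1 of them.

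Of 40 other cuticle and molting genes tested, 6 were lower (1.55% of all genes) and 1 was higher (4.12% of all genes), with a median log2 fold change of -0.22. The lower ones were noah-1 (-0.46) and noah-2 (-0.38), which are zona pellucida domain proteins of the molting coat, fbn-1 (-0.56), a fibrillin-like matrix protein, cut-2 (-0.86), a cuticlin, ptr-4 (-0.93), a patched-related protein, and mlt-8 (-0.44). The higher one was nas-37 (0.49), an astacin protease that opens the old cuticle at the molt. In replicates A and B 6 were lower and 2 higher (4.07% and 5.98% of all genes), and in replicates C and D 3 were lower and 0 higher (1.92% and 4.93% of all genes). Of 25 regulators of epidermal and cuticle genes, only sma-2, a Smad protein of the BMP pathway that sets body size, passed (0.37, adjusted p = 0.534, edgeR), as 4.12% of all genes did as higher. With the replicate number as a block, 2 of the 25 were higher (5.5% of all genes in that fit) and 1 was lower (2.47%). The lower one was blmp-1, a transcription factor of the molting cycle, with a log2 fold change of -0.35 without the block. In replicates A and B 2 of the 25 were higher (5.98% of all genes) and 1 lower (4.07%). In replicates C and D none passed (4.93% of all genes were higher and 1.92% lower). The collagen regulator lin-29 was at 0.03.

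Loss of the furrow collagens is known to switch on antimicrobial peptides of the epidermis (nlp-29 and its neighbours, cnc-2) and genes of the osmotic response (gpdh-1, hmit-1.1). Of 15 tested genes of this response, 2 were higher over all libraries (4.12% of all genes), with a median log2 fold change of 0.61, namely nlp-30 (1.53, adjusted p = 0.127) and nlp-31 (1.18, adjusted p = 0.150, edgeR). In replicates A and B 7 were higher (5.98% of all genes) and 1, gst-4, was lower (4.07%), and in replicates C and D 9 were higher (4.93%) and 0 lower (1.92%). With the replicate number as a block 10 were higher (5.5% of all genes in that fit). In all 4 letters 10 were higher with UA (10.6% of all genes). The level of nlp-30 was 20.4, 14.7, 10.2 and 8.19 CPM in UA A to D, against 5.77, 5.39, 3.37 and 4.01 CPM in control A to D, and every UA library was above every control. The level of nlp-29 was 82.2, 65.7, 34.7 and 24.6 CPM in UA A to D, against 40.4, 48.9, 12.02 and 19.6 CPM in control A to D, with A and B above C and D in both groups. Of the 5 furrow collagens tested, 1 was lower in replicates A and B (4.07% of all genes) and 0 in replicates C and D (1.92%). Whether the levels of these response genes have any link to those of the collagens was not tested.

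**Figure D5:**
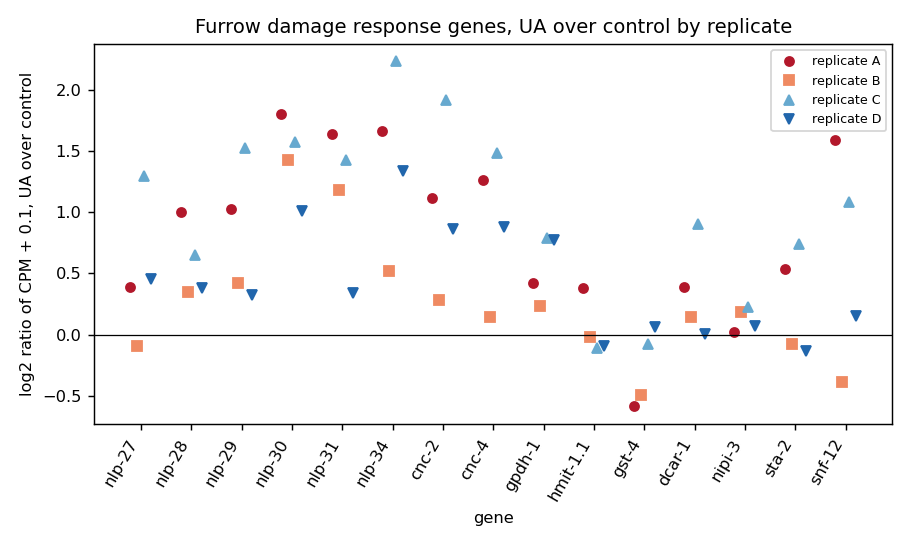
Log2 ratio of CPM + 0.1, UA over control, for 15 genes of the furrow damage response, with a point for each letter. 10 of the 15 genes are above 0 for all 4 letters, and gst-4 is below 0 for A, B and C.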

How the data were processed

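The authors enriched poly(A) RNA, made stranded DNBSEQ libraries from pellets of 100 to 150 animals, aligned reads to WBcel235 with HISAT2 and counted mapped fragments per RefSeq gene with featureCounts 1.6.2. The deposited table holds raw counts, with no normalization by the authors, and the summed exon length of each gene. Of its 46928 gene identifiers, 46925 matched a symbol. The members and gene lists were chosen with earlier results of these data known, and the division into replicates A and B against C and D also came from them.

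Counts were tested in edgeR 4.0.16 under R 4.3.3 (quasi-likelihood F test) after TMM scaling, over the 13720 genes left by filterByExpr, with adjusted p-values by the Benjamini-Hochberg method over all of them. Calls took a fold change above 1.2 with an unadjusted p below 0.05. The paper used DESeq2, of which version 1.42.0 was an alternative. The effect within each division and the difference between the divisions came from a model of 4 groups. The test was tried on simulated counts with 200 changed genes. The biological coefficient of variation was 0.16 over all libraries and 0.0876 in the model of 4 groups. No count model was applied to sums. CPM on a log2 scale had a pseudocount of 0.1.

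The main fits did not pair the samples, and replicate numbers were taken as pairs only in the alternative with the replicate number as a block. Same-numbered libraries deviated together from their group means, with correlations across genes of 0.310, 0.246, 0.191 and 0.353 for A to D. Libraries of the other number in the same division also correlated (UA A with control B 0.333, UA B with control A 0.192, UA C with control D 0.311, UA D with control C 0.150), and 5 of the 8 libraries correlated best with their own number, so these values do not tell replicate pairs from the division. Nothing in the labels says that such libraries were grown together. Depth was 41890058 to 43055719 counts per library, and the p-values over all libraries measure the spread between these populations. The p-values within and between the divisions measure only the spread left inside groups of 2 libraries. Because the division was taken from these same data, that spread and those p-values may be too small.

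Genes named with values were those called over all libraries, those with an adjusted p under 0.05 for the difference between divisions, the dpy, sqt, rol and bli genes, the 6 with the highest control RPKM, and the lifespan and adult collagens, while others were named to describe the divisions. The tiers at means of 1000 and 50 counts were set after the levels were seen.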

Additional observations from a re-analysis of the deposited data

Results flagged for a closer look

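In a group of 4 libraries, a library that lies far from the other 3 was looked for in 66 groups of the named genes. The search found 4 such libraries, close to the rate of about 1 in 20 groups that chance gives. They were col-99 in UA C (2.76 CPM, highest of its group) and, all lowest of the control group, control C for col-19 (77.3 CPM), col-119 (438 CPM) and col-140 (309 CPM). The interaction test of edgeR, at an adjusted p under 0.05, passed for col-20 (difference -1.44 on the log2 scale), col-80 (-1.81) and col-98 (-1.37). It sets UA over control in replicates A and B against that in replicates C and D. That division came from these same data, so the p-values may be too small. For col-98 the difference lay in the controls. Outside the genes tested, 9 of the 78 collagen genes under the count minimum were chosen for their counts in UA C and UA D. They had 1203 counts in UA C and 376 counts in UA D, against 10 to 114 counts in the control libraries.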

How the results depend on the processing

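No called gene changed sign under any alternative: of 208 values of the 16 called genes, 165 stayed past the threshold and 43 did not. The replicate number as a block gave 26 lower genes against 14, 1 gene at an adjusted p under 0.05 against 0, 13 higher genes in replicates C and D against 8, and 11 interactions against 3, and it moved no other count of calls by over 1.5 times. DESeq2 gave 1 higher gene in replicates A and B against 3, 5 higher in C and D, and 10 interactions. No filter on low counts gave 14 higher and 20 lower genes in C and D and 26 interactions. Separate fits of the 4 libraries of each division gave 5 higher genes in C and D. Outside the main fit and the block, the share of all genes called was not computed. The counts from the other fits can therefore not be read against it. At an adjusted p under 0.05 the counts were 0 higher and 0 lower over all libraries, 1 higher and 11 lower in A and B, and 1 higher and 0 lower in C and D. Leaving out each library in turn gave 0 to 3 higher and 7 to 18 lower genes over all libraries, 1 to 4 higher in A and B, 4 to 21 higher and 1 to 15 lower in C and D, and 0 to 24 interactions. The median log2 fold change in C and D ranged from -0.127 to 0.046 on leaving out a library and was 0.10 for genes with a mean of 100 or more counts. The cause of these changes was not tested. The alternative without genes of over 95% identical protein was not run, so shared reads between near-identical collagens were not checked.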
